A study of Mus musculus with 16 samples.

Results

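RAW264.7 cells, a mouse macrophage-like leukaemia line, were sequenced as polyadenylated RNA in a 2 by 2 design that asks whether oxidised low-density lipoprotein (oxLDL) and tirzepatide change each gene by the sum of what each does alone. All 16 of the 16 libraries of the study entered the question, 4 in each of 4 groups. The control received vehicle, which was culture medium. The oxLDL group received 50 µg/ml oxLDL, the tirzepatide group 100 nmol/ml tirzepatide as the labels write the unit, and the combination group both agents. All groups shared the same line and growth medium, high-glucose with fetal bovine serum, and the treatment time is not given in the sources used here. Whether the 4 libraries of a group stand for 4 cultures is not stated, and the spread behind each p-value may thus be technical.

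In macrophages, oxLDL is taken up through scavenger receptors, loads the cell with lipid and turns on lipid-droplet, antioxidant and inflammatory genes. Tirzepatide is a peptide agonist at the GIP receptor and the GLP-1 receptor, which signal through cyclic AMP. When agents act through separate routes their effects on a transcript can add. A transcript that either agent alone already brings to its ceiling or floor shows less than the sum, which is called saturation here, and a transcript moved further than the sum shows synergy. Of the receptors, Gipr lay between 1.49 and 3.64 TPM (transcript abundance scaled for length and depth) over the 16 libraries. Glp1r was listed at 0 in 13 libraries and reached at most 0.051 TPM.

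The quantity measured for each gene was the interaction, the log2 change of the combination against control minus the sum of the oxLDL and tirzepatide log2 changes against control. A value of 0 means that the 2 fold changes multiply. The libraries held between 15877278 and 17336019 expected counts. Of 23 macrophage lineage genes, 19 had a group mean above 1 TPM, and their summed level ran from 19500 to 26500 TPM. Library 2 of the combination did not carry the oxLDL response of its group. Over the 282 genes higher with oxLDL, its mean log2 change over control was 0.133, inside the 0.131 to 0.156 of the 4 tirzepatide libraries and below the 0.367 to 0.379 of the other 3 combination libraries. The main results are therefore given for all 16 libraries and for the 15 without it. Values given once are from all 16 libraries unless stated. Controls 1 and 2 held 519 and 279 summed TPM of pancreatic acinar markers, digestive enzyme genes foreign to macrophages, against 10.3 to 92.1 TPM in the other 14 libraries. Of 36 acinar markers in the table, 27 had a group mean above 1 TPM and 3 were at 0 throughout. Other marker lists stayed low, with hepatocyte markers at 1.62 to 4.42 and lymphocyte markers at 11.7 to 21 summed TPM. Some results are also given without controls 1 and 2, without the acinar markers, or with the acinar share as a covariate. Where the acinar transcripts came from was not tested.

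Few genes were called as departing from the sum. A gene that was not called is not shown to be additive. The interaction was called for 8 of 11319 genes tested (0.0707%) at an adjusted p under 0.05 with all 16 libraries, 3 positive (0.0265%) and 5 negative (0.0442%). Without combination 2 it was called for 9 of 11406 genes (0.0789%), 2 positive (0.0175%) and 7 negative (0.0614%), and 6 genes were called in both. At an unadjusted p under 0.05 the interaction passed for 1168 genes (10.3%), where chance gives 566, and for 1249 genes (chance 570) without combination 2. DESeq2 called 58 genes for the same contrast on the same 16 libraries. The 8 genes had one shape in common. In each, oxLDL and tirzepatide alone moved the transcript in the same direction, both single changes passed the test, and the interaction ran against that direction. For 5 of them, Acod1, Nlrp3, Cxcl2, Plin2 and Sema3e, the single changes were upward. For Stc1, Chrnb1 and Dixdc1 they were downward.

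Promoter windows were read for the 11 genes called in either fit, and RefSeq (mouse build GRCm38.p6, not the build of the counts) held 11 windows for 9 of them, more than 1 for Dixdc1 and Nlrp3. Each window ran from 250 bases before to 50 after a start site. Capitals mark motif matches on either strand. The windows of Acod1, which has the smallest p, and of Cxcl2 and Plin2, which hold the less common motifs, are shown 5′ to 3′ on the gene's strand.
Acod1, chr14:103046762-103047061, plus strand: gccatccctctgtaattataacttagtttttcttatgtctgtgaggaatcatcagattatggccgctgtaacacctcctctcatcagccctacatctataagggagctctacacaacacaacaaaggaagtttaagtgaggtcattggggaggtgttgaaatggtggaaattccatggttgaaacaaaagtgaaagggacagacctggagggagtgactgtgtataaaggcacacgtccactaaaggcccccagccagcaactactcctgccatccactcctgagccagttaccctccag
Cxcl2, chr5:90903649-90903948, plus strand: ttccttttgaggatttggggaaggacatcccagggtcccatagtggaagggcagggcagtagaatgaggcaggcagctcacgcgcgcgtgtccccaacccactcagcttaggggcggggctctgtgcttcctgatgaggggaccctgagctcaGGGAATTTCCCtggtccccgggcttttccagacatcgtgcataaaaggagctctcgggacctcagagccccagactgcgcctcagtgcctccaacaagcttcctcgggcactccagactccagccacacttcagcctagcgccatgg
Plin2, chr4:86670010-86670309, minus strand: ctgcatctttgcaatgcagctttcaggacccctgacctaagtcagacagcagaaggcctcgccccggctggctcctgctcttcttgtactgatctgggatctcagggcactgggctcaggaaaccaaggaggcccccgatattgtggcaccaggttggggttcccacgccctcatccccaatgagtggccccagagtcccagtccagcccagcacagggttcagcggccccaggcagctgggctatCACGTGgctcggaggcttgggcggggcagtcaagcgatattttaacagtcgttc
In the Cxcl2 window the NF-kB core (GGGA and TTCC spaced by 2 bases) matched once on each strand, the 2 matches overlapping. That core is in a window of 1.63% of the 27025 genes of the table. An E-box, CACGTG, is in the windows of Plin2, Sema3e and Ptgs2 and of 8.09% of all genes. The antioxidant response element core TGANNNNGC is in a window of Chrnb1, Nlrp3, Ptgs2 and Sema3e and of 45% of all genes. The AP-1 motif TGANTCA (8.97% of genes) and the cyclic AMP response element TGACGTCA (2.03%) are in none of the 9 genes' windows. The Acod1 window holds none of the 5 motifs searched.

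The firmest case was Acod1, from the list of inflammasome and itaconate genes. Acod1 (ENSMUSG00000022126) encodes the mitochondrial enzyme that makes itaconate, a metabolite of activated macrophages. Its levels were 14.0, 11.2, 12.7 and 12.6 TPM in control, 24.9, 23.2, 22.1 and 21.4 TPM with oxLDL, 26.6, 24.0, 22.7 and 23.4 TPM with tirzepatide, and 24.0, 23.3, 22.7 and 23.9 TPM with both. Every treated library lay above every control, and the 3 treated groups overlapped. Acod1 rose by a log2 change of 0.85 ± 0.08 (SE) with oxLDL and 0.90 ± 0.08 with tirzepatide, while the combination rose by 0.88 ± 0.08. The interaction was -0.87 (95% interval -1.10 to -0.64, adjusted p = 0.000704), and -0.87 without combination 2 (adjusted p = 0.00255). In TPM the single increments were 10.2 and 11.5 and the combined increment was 10.8. On the log2 scale the combination held 50.4% of the summed change.

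Nlrp3 (ENSMUSG00000032691), the sensor that assembles the inflammasome, followed the same shape with a wider spread. It stood at 25.6, 31.3, 30.5 and 32.6 TPM in control and 40.2, 38.3, 44.5 and 42.3 TPM with oxLDL. With tirzepatide it stood at 45.6, 49.6, 38.1 and 41.9 TPM, and with both at 42.0, 37.5, 44.2 and 51.6 TPM. No treated library reached down to the controls, and the 3 treated groups overlapped. The interaction was -0.42 (interval -0.59 to -0.25, adjusted p = 0.0356) in 16 libraries. It was -0.39 with an adjusted p of 0.0569, past the threshold no longer, without combination 2. Of 13 inflammasome and itaconate genes tested, these 2 were called, both negative, and the median interaction was -0.10 in 16 and -0.17 in 15 libraries, and -0.07 without combination 3.

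**Figure D1:**
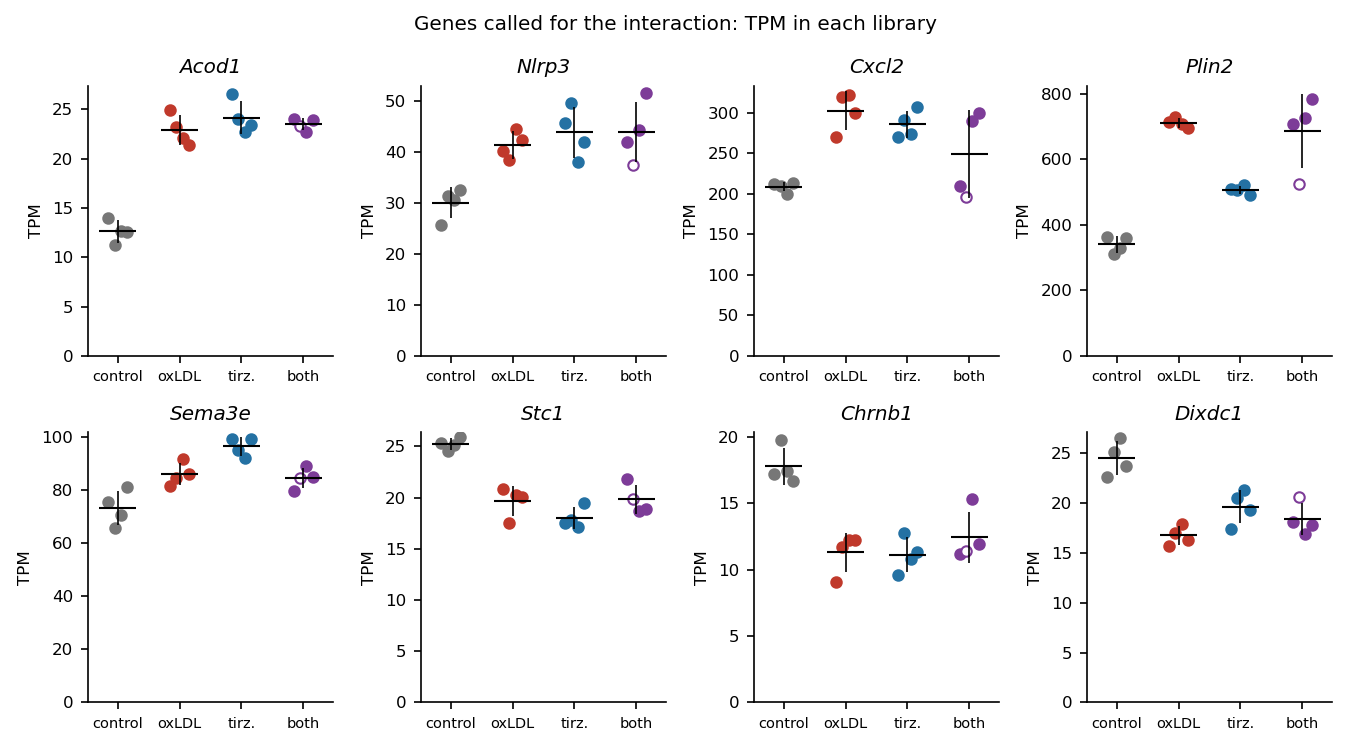
TPM (vertical axes, starting at 0) of the 8 genes called for the interaction, 1 point a library, in control, oxLDL, tirzepatide (tirz.) and the combination (both). Horizontal lines are group means, vertical lines 1 SD (n = 4), and the open point is combination 2; for Acod1 all 12 treated libraries lie at 21.4 TPM or above and all controls at 14.0 or below.

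Among cytokine genes the interaction was negative for 15 of 23 tested with 16 libraries (median -0.11) and for 19 of 23 without combination 2 (median -0.21). Over all genes 5789 of 11319 were negative in 16 libraries, and the median was 0.00 in both fits. The cytokine median was -0.05 without tirzepatide 4 and -0.06 without combination 3. Cxcl2 (ENSMUSG00000058427), a chemokine that draws neutrophils, was the 1 cytokine called in 16 libraries. It stood at 212, 210, 200 and 213 TPM in control, 270, 319, 321 and 300 TPM with oxLDL, 270, 291, 274 and 307 TPM with tirzepatide, and 209, 196, 290 and 300 TPM with both. Combination libraries 1 and 2 lay at 209 and 196 TPM, at or under the control levels, while libraries 3 and 4 lay within the single-agent range. The oxLDL change was 0.52 ± 0.09 and the tirzepatide change 0.41 ± 0.09, whereas the combination change of 0.24 ± 0.09 was not called (adjusted p = 0.0949). The Cxcl2 interaction was -0.70 (interval -0.95 to -0.44, adjusted p = 0.0221), and -0.60 (adjusted p = 0.0211) without combination 2. Without combination 1 it was not called.

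Csf3, which encodes the granulocyte growth factor G-CSF, was called in the 15-library fit and not in the 16-library fit. It was close to the floor in control at 1.35, 0.587, 0.501 and 0.965 TPM. It stood at 9.35, 8.51, 8.26 and 7.03 TPM with oxLDL, 3.91, 5.38, 4.29 and 3.87 TPM with tirzepatide, and 8.43, 1.92, 10.8 and 11.2 TPM with both. Its interaction was -2.03 (interval -2.73 to -1.34, adjusted p = 0.0125) in 15 libraries and -2.37 (adjusted p = 0.0890) in 16. The scale mattered for this gene. In TPM the increments were 7.43 with oxLDL, 3.51 with tirzepatide and 7.25 with both, and the difference from the sum was -3.70 ± 2.24 (SE) TPM in 16 libraries. Without combination 2 that difference was -1.64 TPM.

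Il1b, the interleukin-1 beta precursor gene, was not called on the log2 scale in either fit, or on the linear scale in 16 libraries. The sign of its interaction depended on the scale. With oxLDL Il1b stood at 13.7 to 18.7 TPM and with tirzepatide at 3.38 to 4.03 TPM, from 0.457 to 2 TPM in control. The combination libraries held 23.2, 3.91, 25.9 and 23.4 TPM, with library 2 at the tirzepatide level and the other 3 above every oxLDL library. On the log2 scale its interaction was -1.24 (adjusted p = 0.456) in 16 libraries and -0.90 (adjusted p = 0.260) in 15, neither called. On the TPM scale the combination of the 15 libraries stood 5.43 TPM above the sum of the single increments. The 16 libraries gave 0.36 ± 5.22 (SE) TPM. The combination SD was 10.2 TPM in 16 libraries and 1.5 TPM without combination 2. The excess in the 15 libraries was not tested on this scale.

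Ptgs2, which encodes the prostaglandin-forming enzyme COX-2, and Lcn2, an iron-siderophore binding protein, were likewise called in the 15-library fit alone of these fits. Ptgs2 lay at 69.7 to 84.8 TPM in control, 200 to 233 TPM with oxLDL, 101 to 108 TPM with tirzepatide and 191, 79.9, 222 and 216 TPM with both. In 15 libraries the oxLDL change was 1.47 ± 0.06, the tirzepatide change 0.44 ± 0.06 and the combination change 1.44 ± 0.06, with an interaction of -0.48 (adjusted p = 0.0211). In 16 libraries its interaction was -0.72 with an adjusted p of 0.271. Lcn2 was the exception in direction. It stood at 302 to 393 TPM in control, 237 to 277 TPM with oxLDL, 568 to 648 TPM with tirzepatide and 248, 570, 310 and 314 TPM with both. In 15 libraries Lcn2 fell with oxLDL (-0.46 ± 0.08), rose with tirzepatide (0.75 ± 0.07) and fell with both (-0.30 ± 0.08). Tirzepatide added 0.16 in the presence of oxLDL (adjusted p = 0.567), and the interaction was -0.58 (adjusted p = 0.0301). It was -0.27 (adjusted p = 0.692) in 16 libraries.

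Lipid handling genes were led by Plin2 (ENSMUSG00000028494), which encodes a coat protein of lipid droplets and is a marker of foam cells. Plin2 stood at 363, 310, 330 and 361 TPM in control, 712, 730, 708 and 694 TPM with oxLDL, 509, 506, 520 and 490 TPM with tirzepatide, and 708, 524, 727 and 785 TPM with both. The oxLDL and tirzepatide groups did not overlap each other or the control, and the combination sat at or above the oxLDL level except in library 2. It rose by 1.03 ± 0.08 with oxLDL, 0.53 ± 0.08 with tirzepatide and 0.97 ± 0.08 with both. The Plin2 interaction was -0.59 (interval -0.81 to -0.37, adjusted p = 0.0221), and -0.48 (adjusted p = 0.00318) without combination 2. On the TPM scale the increments were 370, 165 and 345 in 16 libraries. The combination there differed from oxLDL by a log2 change of -0.06 ± 0.08 (adjusted p = 0.815). Without combination 2 the combination mean was 740 TPM, above the oxLDL mean of 711 TPM.

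Of 23 PPAR target and lipid droplet genes tested, Plin2 was the 1 called, 5 had a negative and 1 a positive interaction at an unadjusted p under 0.05, and the median was -0.03 in 16 and -0.04 in 15 libraries. Pnpla2, the lipase that opens triglyceride stores, had an interaction of -0.28 (adjusted p = 0.127) and Cpt1a, which carries fatty acids into mitochondria, -0.19 (adjusted p = 0.498). Neither was called. Combination 2 was low for Cpt1a, at 33.8 TPM against 41.5 to 43.3 TPM. In TPM the departure of Cpt1a from the sum was -3.99 with 16 libraries and -1.92 without combination 2. Among 20 LXR targets and cholesterol efflux genes none was called or passed an unadjusted p under 0.05, with a median of 0.00. The value of Hilpda, a lipase inhibitor of lipid droplets, moved with combination 2. Its interaction was -0.37 with all libraries and -0.16 without that library, where its combination values were 43.3, 21.4, 47.3 and 50.9 TPM.

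The 3 genes with a positive call had been lowered by each agent. Stc1 (ENSMUSG00000014813), a secreted glycoprotein hormone gene, stood at 25.3, 24.5, 25.1 and 25.9 TPM in control, 20.8, 17.5, 20.2 and 20.1 TPM with oxLDL, 17.5, 17.8, 17.1 and 19.5 TPM with tirzepatide, and 21.8, 19.9, 18.7 and 18.9 TPM with both. All treated libraries lay below all controls. Stc1 fell by 0.36 with oxLDL, by 0.52 with tirzepatide and by 0.35 with both on the log2 scale (SE 0.06, 0.07 and 0.06). Its interaction was 0.53 (interval 0.33 to 0.72, adjusted p = 0.0221), and 0.52 (adjusted p = 0.0268) without combination 2.

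Chrnb1 (ENSMUSG00000041189), the beta subunit gene of the muscle-type nicotinic acetylcholine receptor, had the largest positive value of the 3. Its levels were 17.2, 19.8, 17.4 and 16.7 TPM in control, 9.08, 11.7, 12.2 and 12.2 TPM with oxLDL, 9.59, 12.8, 10.8 and 11.3 TPM with tirzepatide, and 11.2, 11.4, 15.3 and 11.9 TPM with both. The treated groups overlapped below the controls. The interaction was 0.85 (interval 0.52 to 1.17, adjusted p = 0.0267), and 0.88 (adjusted p = 0.0256) without combination 2. The combination held 38.6% of the summed log2 change.

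Dixdc1 (ENSMUSG00000032064), a DIX-domain gene of Wnt signalling, stood at 22.6, 25.1, 26.5 and 23.7 TPM in control, 15.7, 17, 17.9 and 16.3 TPM with oxLDL, 17.4, 20.5, 21.3 and 19.3 TPM with tirzepatide, and 18.1, 20.6, 16.9 and 17.8 TPM with both. All treated libraries lay below the controls, and the treated groups overlapped. The interaction was 0.47 (adjusted p = 0.0347) in 16 libraries and 0.42 with an adjusted p of 0.0569, not called, in 15. Other genes lowered by both agents had positive values that did not pass. Timp1, a metalloproteinase inhibitor, had 2.23 (adjusted p = 0.0814), with 2.95 to 4.04 TPM in control and 2.16 to 3.63 TPM in the combination. The potassium channel gene Kcnd1 had 0.57 (adjusted p = 0.101), and the small heat shock gene Cryab 0.67 (adjusted p = 0.273).

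Sema3e (ENSMUSG00000063531), a secreted guidance ligand of plexin D1, was the called gene with the smallest single change. It stood at 75.6, 65.9, 70.7 and 81.0 TPM in control, 81.7, 84.4, 91.8 and 86.2 TPM with oxLDL, 99.2, 95.2, 92.0 and 99.4 TPM with tirzepatide, and 79.6, 84.4, 88.9 and 84.8 TPM with both. The combination lay at the oxLDL level and below every tirzepatide library. The oxLDL change was 0.22 ± 0.05 and the tirzepatide change 0.37 ± 0.05, against 0.19 ± 0.05 for the combination. The Sema3e interaction was -0.40 (interval -0.54 to -0.26, adjusted p = 0.0221), and -0.40 (adjusted p = 0.0211) without combination 2.

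**Figure D2:**
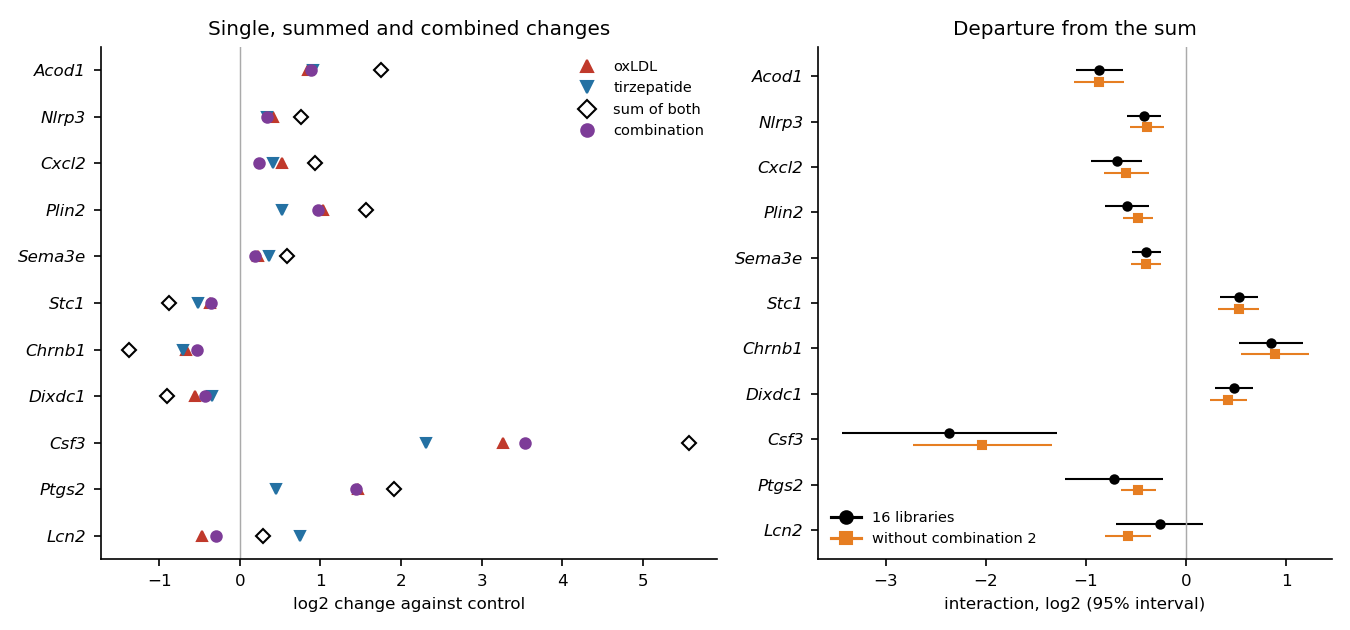
Left, log2 change against control with oxLDL, with tirzepatide, their sum (open diamonds) and with both, for the 11 genes called in either fit; Csf3, Ptgs2 and Lcn2 are shown from the 15-library fit and the rest from 16 libraries. Right, the interaction with its 95% interval in 16 libraries and without combination 2; for Acod1 the combination (0.88) lies beside each single change and the sum lies at 1.75.

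For 6 of the 8 called genes no treated group overlapped the controls in TPM, as for 1.56% of all genes tested. In 5 of those 6 (Acod1, Chrnb1, Dixdc1, Nlrp3 and Stc1) the 3 treated groups all overlapped each other, as for 1.13% of all genes. The 8 were called on the same libraries, so nothing is read from these shares. None of the 8 was called for the combination against oxLDL, and 1, Plin2, was called for the combination against tirzepatide. The control libraries enter both single changes and the interaction. A gene whose 4 control libraries differ from the 12 treated ones for any other reason has this same shape, and the 2 cannot be told apart in a design with 1 control group. With controls 1 and 2 left out together, 5 genes were called, 4 of them among the 8. Stc1, Dixdc1, Nlrp3 and Chrnb1 were then not called.

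Of the 8, Acod1 was called under all 27 alternatives tried. Leaving out control 2, oxLDL 2, oxLDL 3 or tirzepatide 1 each left Acod1 as the 1 gene called, so the call of each of the other 7 rests on those libraries. Sema3e was otherwise called with any library left out (12 of 16), Stc1 failed also without tirzepatide 3 (11 of 16), and Plin2, Chrnb1 and Cxcl2 were called in 9 of 16. Plin2 also failed without oxLDL 1, tirzepatide 2 or tirzepatide 3, Chrnb1 without oxLDL 1, tirzepatide 3 or combination 3, and Cxcl2 without tirzepatide 2, tirzepatide 3 or combination 1. Dixdc1 was called in 5 of 16, those without control 1, control 4, tirzepatide 2, tirzepatide 3 or combination 3. Nlrp3 was called in 3 of 16, those without control 1, control 4 or tirzepatide 4. Their values moved little, Acod1 between -0.94 and -0.82, Stc1 between 0.47 and 0.57 and Nlrp3 between -0.46 and -0.37.

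**Figure D3:**
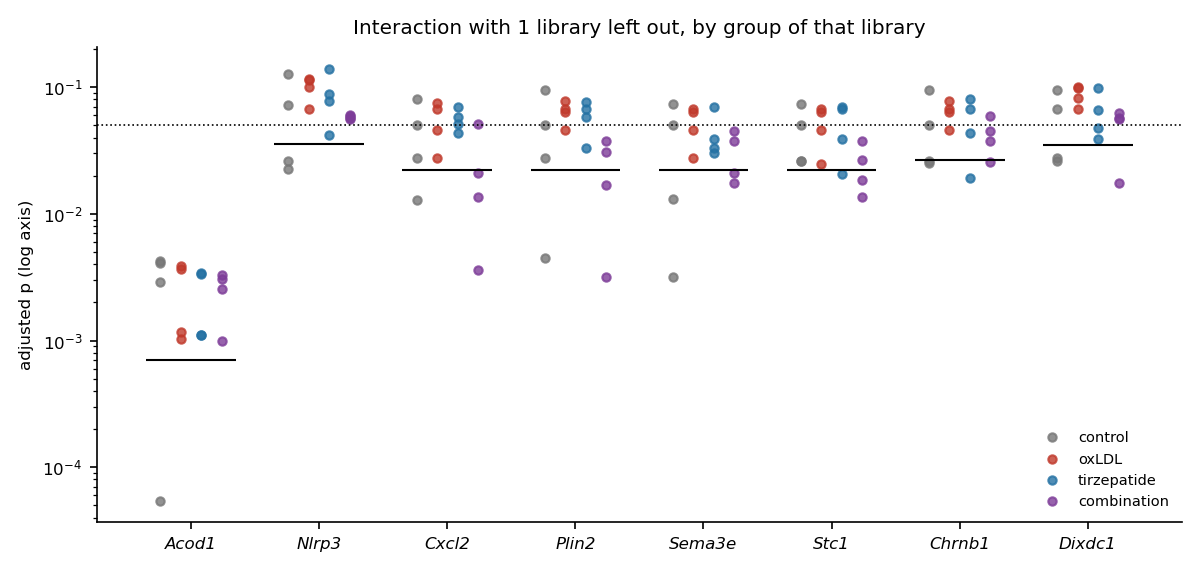
Adjusted p of the interaction (log axis) for the 8 called genes with 1 library left out, 1 point a library coloured by its group; black lines are the p with all 16 libraries and the dotted line is 0.05. Every Acod1 point lies at 0.00424 or below, while each other gene has points on both sides of the dotted line.

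Genes called for both agents in the same direction were described in the same terms. With 16 libraries, oxLDL was called for 514 genes against control (4.54%), 2.49% upward and 2.05% downward. Tirzepatide was called for 462 (4.08%), 2.34% upward and 1.74% downward, and the combination for 1012 (8.94%). In 82 genes both single agents were called upward and in 51 both downward. The 82 had a median oxLDL change of 0.22, a median tirzepatide change of 0.24 and a median combination change of 0.23, against a median sum of 0.47. The 51 had medians of -0.42, -0.44 and -0.40, against a sum of -0.90. For 25 of the 82 the combination change was smaller than either single change, for 24 it lay between them, for 33 it lay between the larger one and the sum, and for 0 it passed the sum. The same counts for the 51 were 18, 13, 20 and 0. The median combination change was 51.7% and 52.1% of the sum. Choosing genes called for both single agents pulls the interaction against their direction, since the same controls enter all of these values, so the counts describe these genes and test nothing. Of the 51, 5 are on the acinar marker list, and the other 46 had a median share of 51.6%. Among the 5, Amy2a2, Amy2a3 and Amy2a4 had identical values. Those 46 still hold Prss3b, a serine protease gene, Dmbt1 and Gm2663, all named after their values were seen. Each of them fell with each agent by over 2 on the log2 scale. Without combination 2, oxLDL was called for 5.11% and tirzepatide for 4.75% of genes. The sets were then 92 and 64 genes, the shares were 55.3% and 52.7%, and 1 gene of the 156 passed the sum.

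**Figure D4:**
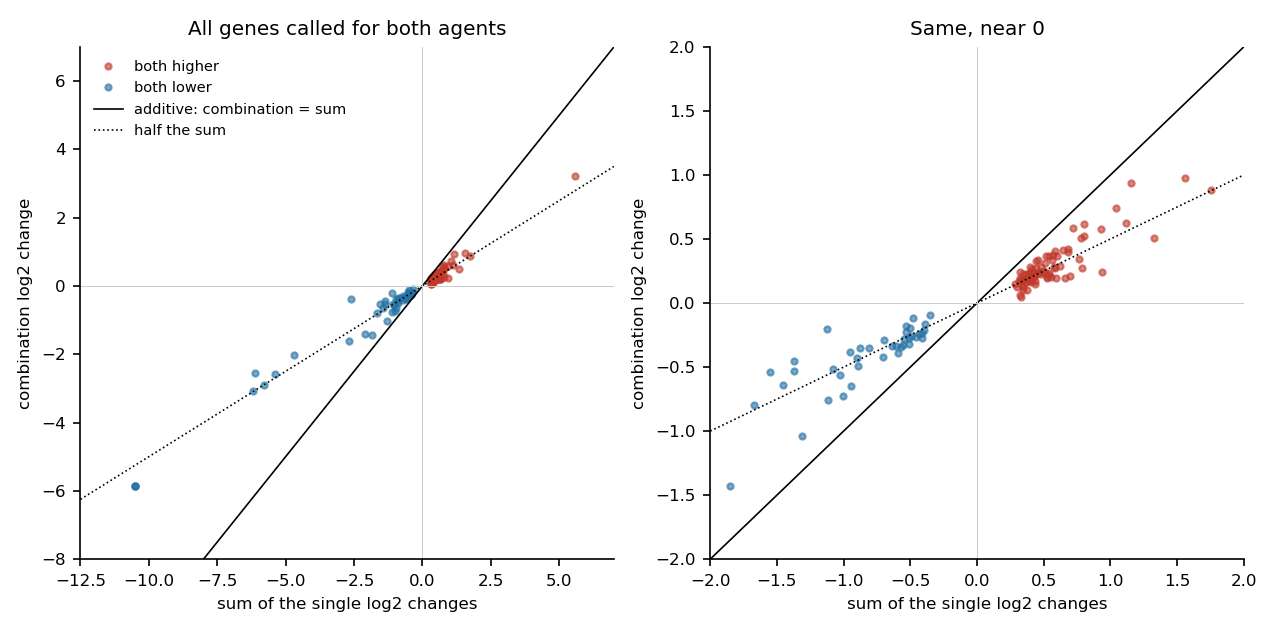
Combination log2 change (vertical) against the sum of the single log2 changes (horizontal), 1 point a gene, for the 82 genes higher and the 51 genes lower with both single agents, at full range and near 0. The solid line is additivity and the dotted line is 0.5 of the sum; no point lies beyond the solid line, and the points scatter about the dotted one, with median shares of 51.7% and 52.1%.

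Among the 82, the pentose phosphate genes G6pdx and Pgd and the cystine importer gene Slc7a11 stayed below the sum without a call. G6pdx changed by 0.37 with oxLDL, 0.31 with tirzepatide and 0.43 with both, an interaction of -0.26 (adjusted p = 0.127). Pgd had -0.23 (adjusted p = 0.182) and Slc7a11 -0.31 (adjusted p = 0.273). The endotoxin coreceptor gene Cd14 had -0.49 (adjusted p = 0.248), the urokinase receptor gene Plaur -0.48 (adjusted p = 0.174) and the scavenger receptor gene Msr1 -0.27 (adjusted p = 0.321). Combination 2 was the lowest combination library for Cd14 (145 TPM against 194 to 276) and Slc7a11 (116 TPM against 151 to 153). In TPM the departure of Cd14 from the sum was -61.5 with 16 libraries and -37.2 without combination 2. That of Slc7a11 was -23.9 and -14.8. Msr1 lay at 68.0 to 82.6 TPM in control, 94.2 to 100 TPM with oxLDL, 99.8 to 117 TPM with tirzepatide and 105 to 115 TPM with both. All its treated libraries lay above the controls, the combination also above every oxLDL library, and the tirzepatide group overlapped both.

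The effect of each agent was smaller in the presence of the other for most of the genes chosen by that agent alone. For the genes higher with tirzepatide (2.34% of those tested), the median tirzepatide change was 0.22 without oxLDL and 0.04 with it, and 196 kept the sign. For 197 lower genes it was -0.30 and -0.08, and 154 kept the sign. For the 282 genes higher with oxLDL the median oxLDL change was 0.25 without and 0.10 with tirzepatide, or 0.25 and 0.13 for 302 genes (2.65%) without combination 2. The choice enlarges the first value of each pair. Chosen the other way, on the combination against tirzepatide, 86 genes (0.76%) were higher and 88 (0.777%) lower. Their median oxLDL changes were 0.33 with and 0.31 without tirzepatide, and -0.32 with and -0.24 without. Without combination 2 those sets held 214 (1.88%) and 230 (2.02%) genes, with 0.29 against 0.21 and -0.30 against -0.16. For oxLDL the direction of the difference followed the choice of genes. Chosen on the combination against oxLDL, 4 genes (0.0353%) were higher and 0 lower. Their median tirzepatide changes were 0.45 with and 0.37 without oxLDL. Without combination 2 that choice held 2 higher genes, with 0.42 against 0.46, and 1 lower gene. These sets are too small to give a direction for tirzepatide.

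In the combination against oxLDL, 4 genes were called (0.0353%), all higher, and 3 of them, Klf10, Txnip and Arrdc4, had an interaction whose interval included 0. Klf10, a zinc-finger factor of the early response, stood at 50.6 to 56.3 TPM in control, 55.1 to 57.7 TPM with oxLDL, 74.4 to 77.4 TPM with tirzepatide and 76.1 to 86.3 TPM with both. Tirzepatide raised it by 0.49 ± 0.05 alone and by 0.48 ± 0.05 beside oxLDL, and the interaction was -0.01 (interval -0.15 to 0.14). Txnip, a thioredoxin-binding regulator of glucose uptake, rose by 0.43 alone and by 0.47 beside oxLDL, an interaction of 0.04 (interval -0.10 to 0.18) in 16 libraries and -0.03 (interval -0.14 to 0.08) in 15. Its arrestin relative Arrdc4 rose by 0.31 and 0.43, an interaction of 0.12 (interval -0.09 to 0.32), and was not called beside oxLDL without combination 2 (adjusted p = 0.0525). The fourth gene, Ints6l, named after its values were seen, had an interaction of 0.29 (adjusted p = 0.127). Without combination 2, 3 genes were called for this contrast, Klf10 and Txnip higher and Cd5l lower, and Ints6l was not. The intervals bound the departure and do not show that it is 0.

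Of the genes that oxLDL changed and for which tirzepatide alone was not called, Hmox1, Abca1, Abcg1, Tnf and Nos2 lay near the sum once combination 2 was left out. Hmox1, the heme-degrading target of NRF2, changed by 0.78 with oxLDL, 0.05 with tirzepatide and 0.77 with both in 15 libraries, an interaction of -0.06 (interval -0.18 to 0.06). In 16 libraries it was -0.21 (interval -0.49 to 0.07), with combination values of 668, 425, 740 and 722 TPM. The cholesterol exporter genes Abca1 and Abcg1, which oxLDL lowered, had interactions of 0.03 and -0.07 in 15 libraries and 0.15 and 0.08 in 16. Tnf had 0.04 and Nos2, the inducible nitric oxide synthase gene, 0.01 in 15 libraries. None of these was called in either fit. Others of the kind lay further from the sum, also without a call, such as Ifih1 at 0.45 and Pnpla2 at -0.27 in 15 libraries.

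Over the gene lists, mitosis and G2/M genes had the lowest median in 16 libraries. The interaction was negative for 34 of 35 tested (median -0.18, 10 at an unadjusted p under 0.05, 0 called), and for 35 of 35 without combination 2 (median -0.16). With 1 library left out the median ran from -0.22 to -0.14, and without controls 1 and 2 it was -0.23. Tirzepatide alone had a median change of 0.18 on these genes, oxLDL 0.07 and the combination 0.03. Ube2c, the ubiquitin-conjugating enzyme of the anaphase-promoting complex, had an interaction of -0.39 (adjusted p = 0.0893). It stood at 84.1 to 101 TPM in control, 93.2 to 106 TPM with oxLDL, 105 to 128 TPM with tirzepatide and 83.1 to 100 TPM with both. Tirzepatide libraries lay above every control and every combination library. The complex's activator gene Cdc20 had -0.39 (adjusted p = 0.154) and the mitotic kinase gene Plk1 -0.55 (adjusted p = 0.154). DNA replication genes were nearer 0, with a median of -0.04 over 37, although the helicase gene Mcm2 had -0.26 (adjusted p = 0.0893).

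Stress and early response lists leaned the same way without calls. ATF4 targets, genes of amino acid supply, were negative for 21 of 23 (median -0.14, 8 at an unadjusted p under 0.05) and for 22 of 23 without combination 2 (median -0.12). Phgdh, the first enzyme of serine synthesis, had -0.19 (adjusted p = 0.256) and Atf4 itself -0.15 (adjusted p = 0.333). Without combination 1 the list's median was -0.08, and without controls 1 and 2 it was -0.10. AP-1 and EGR early response genes had a median of -0.16 over 28, and -0.12 in 15 libraries, but -0.06 without combination 1 or without controls 1 and 2. NRF2 targets had a median of -0.13 over 29 in 16 libraries, -0.06 in 15 and -0.08 without controls 1 and 2. Among them the autophagy receptor gene Sqstm1 had -0.29 (adjusted p = 0.0890). The median NF-kB subunit or feedback gene had -0.06 over 24 and -0.11 in 15 libraries. Genes outside these lists near the threshold were Flna, an actin cross-linker, at -0.28, Prep, a prolyl peptidase, at -0.31, and Niban1 at -0.28, each with an adjusted p of 0.0814.

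**Figure D5:**
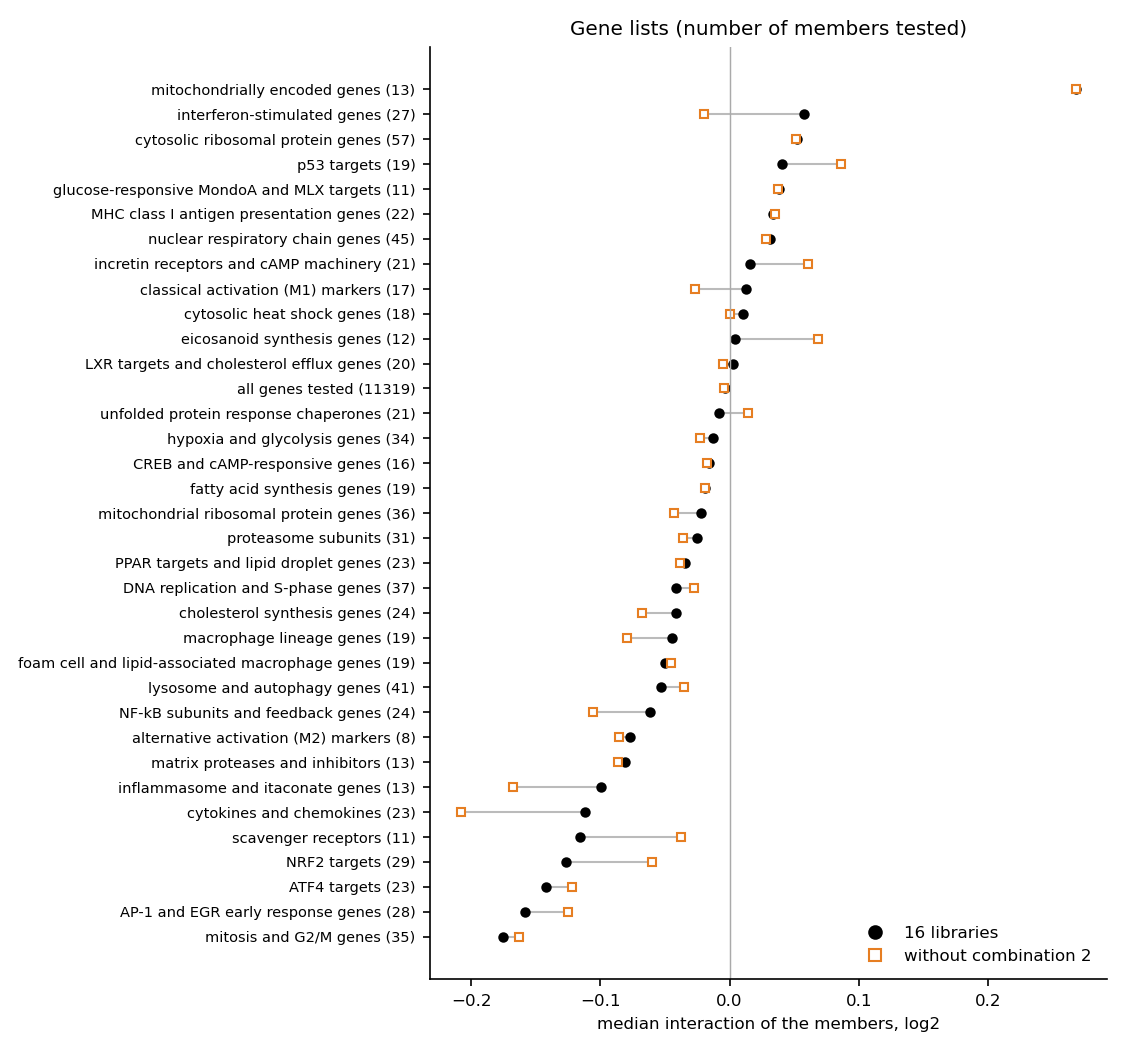
Median interaction (log2, horizontal) of the members of each gene list with at least 4 genes tested, in 16 libraries (filled) and without combination 2 (open), with the number of members tested in brackets; acinar markers, at 2.58, are off the plot. In 16 libraries mitosis and G2/M genes lie lowest at -0.18 and mitochondrially encoded genes highest at 0.27, and all genes tested lie at 0.00.

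Positive medians were found in fewer lists. All 13 mitochondrially encoded genes had a positive interaction, with a median of 0.27 in both fits, 5 at an unadjusted p under 0.05 and 0 called. The share of counts from these genes was 11.2% in control 1 and 10.5% in combination 1, against 7.69% to 9.53% in the other libraries, and the median was 0.14 without control 1 and 0.05 without controls 1 and 2. With that share as a covariate it was -0.02. The share is made of these same genes, so a median near 0 there is built in and tests nothing. Nuclear-encoded respiratory chain genes had a median of 0.03 over 45. Cytosolic ribosomal protein genes were positive for 45 of 57, with a median of 0.05, and 0.09 without control 4. Acinar markers had a median of 2.58 over 20 tested, 0 called, and 0.37 without controls 1 and 2. Interferon-stimulated genes had a median of 0.06 over 27 in 16 libraries and -0.02 in 15. Of the antiviral members that oxLDL lowered, Rsad2 had 0.90 (adjusted p = 0.273) and the RNA sensor gene Ifih1 0.46 (adjusted p = 0.174). Combination 2 was high for Rsad2, at 3.99 TPM against 1.52 to 2.59 TPM. In TPM the departure of Rsad2 from the sum was 1.56 with 16 libraries and 1.1 without combination 2. The 21 incretin receptor and cyclic AMP machinery genes tested had a median of 0.02 and the 16 CREB-responsive genes -0.02, with 0 called in each.

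No gene was called as synergistic. A gene was counted as synergistic in shape when the combination change exceeded each single change and their sum, and 2751 of 11319 genes had that shape, 66 of them at an unadjusted p under 0.05. The saturating shape, with both single changes at least 1.2-fold in 1 direction and the interaction against it, was held by 561 genes. Of these, 187 passed the unadjusted threshold. The synergistic shape has no such minimum size, so the counts of these shapes cannot be compared. Without combination 2 the counts were 132 of 3248 and 186 of 595. The shapes use the same values as the interaction, so these counts are a description. DESeq2 called 58 genes, and 56 of them had single changes in 1 direction with the interaction against it. The same controls enter all of these values, which pulls genes called for the interaction toward this pattern. That count therefore tests nothing.

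Cd5l (ENSMUSG00000015854), a secreted scavenger-receptor family protein gene of macrophages, had the smallest p of the synergistic shape and is named after its values were seen. It stood at 5.28, 5.18, 6.54 and 5.36 TPM in control, 5.53, 5.73, 5.96 and 4.41 TPM with oxLDL, 5.31, 5.20, 6.31 and 7.82 TPM with tirzepatide, and 1.97, 3.77, 2.97 and 2.80 TPM with both. All 4 combination libraries lay below all 12 others. Cd5l changed by -0.05 ± 0.17 with oxLDL, 0.11 ± 0.17 with tirzepatide and -0.96 ± 0.18 with both. Its interaction was -1.02 (interval -1.53 to -0.50, adjusted p = 0.127), and -1.18 (interval -1.70 to -0.66, adjusted p = 0.0569) without combination 2. Neither passed. Against oxLDL alone the combination was lower by a log2 change of -1.07 (adjusted p = 0.0463, called) in 15 libraries and -0.91 (adjusted p = 0.0847) in 16. The Cd5l interaction was called by DESeq2 and, with edgeR, when genes of low count were kept. Egr1, an early response factor, had the same shape at a smaller size, with 5.59 to 7.20 TPM in the combination against 8.32 to 10 TPM in control and an interaction of -0.20 (adjusted p = 0.555).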

How the data were processed

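Messenger RNA was enriched with capture beads and sequenced on an Illumina instrument, per the labels' protocols. The authors deposited an expected count per gene and library, unscaled between libraries, and TPM over 21965 genes. Per the submitters' processing notes the build was GRCm39 and the tools included RSEM, StringTie 1.3.1, Bowtie2 2.2.8 and fastp 0.18.0. No annotation release, and no strand setting, is given in the sources used here, so reads of overlapping or near-identical genes cannot be told apart. 

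Expected counts were rounded and tested with edgeR 4.0.16 (R 4.3.3): filterByExpr with a minimum count of 10, TMM scaling, 1 mean per group and quasi-likelihood tests, two-sided, with Benjamini-Hochberg adjustment over all genes and a call at an adjusted p under 0.05. TPM served for levels only. Alternatives used DESeq2 1.42.0, limma 3.58.1, other filters, scalings, covariates and left-out libraries. Code was tested on simulated data with interactions planted in known genes. The fit called 16% of 1.2-fold, 66% of 1.5-fold, 88% of 2-fold and 84% of 3-fold interactions. The typical spread between libraries of a group was 6.33%, given as 0.0633 by edgeR's common biological coefficient of variation, and the median SE of the interaction was 0.108.

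Genes are named if called in either fit, among the 10 smallest p in each direction at 5 TPM or more, among 3 per list with an unadjusted p under 0.01, among the 10 largest changes shared by both agents, or on a fixed list. The comparison, its lists and its named genes were chosen with earlier results of these data known. Same-numbered libraries were checked for pairing. Their deviations correlated weakly, with a median of 0.0176, and the main fit holds no block for the number.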

Additional observations from a re-analysis of the deposited data

Results flagged for a closer look

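The tirzepatide effect with oxLDL differed from that without oxLDL, by the interaction test of edgeR, for the 8 genes described above, with differences of -0.87 (Acod1), -0.398 (Sema3e), 0.526 (Stc1), -0.696 (Cxcl2), -0.589 (Plin2), 0.845 (Chrnb1), 0.474 (Dixdc1) and -0.423 (Nlrp3) on the log2 scale.

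A library stood far from the other 3 of its group in 9 of 200 sets examined, where chance gives 10. A set was a named gene, or the mitochondrial share, in 1 group. The sets share the same libraries, so the count does not show that no library is apart. Combination 2 was low but missed the rule for Hmox1 (425 TPM against 668 to 740) and Ptgs2 (79.9 TPM against 191 to 222). Combination 2 was the library apart for Il1b (3.91 TPM against 23.2 to 25.9) and for Slc7a11 (116 TPM against 151 to 153). The low combination library for Prep was library 1 (18.4 TPM against 20.5 to 20.6). With tirzepatide, library 1 was low for Ptgs2 (101 TPM against 108 in the others) and library 4 high for Nos2 (74.8 TPM against 60.9 to 61.6). With oxLDL, library 2 was high for Plaur (33.2 TPM against 25.6 to 26.5) and library 4 for Plk1 (22.5 TPM against 16.6 to 17.5). In control, library 1 was low for Egr1 (8.32 TPM against 9.78 to 10) and library 3 high for Cd5l (6.54 TPM against 5.18 to 5.36).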

How the results depend on the processing

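The number of genes called, 8 in all with 3 positive and 5 negative, depended on the test. Keeping genes of low count gave 39 (20 positive, 19 negative), DESeq2 58 (29 and 29), the mitochondrial share as a covariate 14 (10 negative), and controls 1 and 2 left out 5 (1 positive). With the acinar share as a covariate 6 genes were called, 5 of them among the 8, and Stc1, Nlrp3 and Chrnb1 were not. With the acinar markers left out the same 8 were called. Leaving out 1 library gave 1 to 16 genes, 0 to 7 positive and 1 to 9 negative. On the linear scale of CPM 9 genes were called, 3 of them among the 8 (Acod1, Sema3e and Chrnb1), and lists were not recomputed there. A higher TPM filter and DESeq2 size factors each gave the same 8. Quantile normalization with limma gave 8, of which 7 were among the main 8, and Nlrp3 was not called. In a fit with the replicate number as a block, 29 genes were called (10 positive, 19 negative), all 8 among them. The deviations of 24 same-numbered pairs correlated between -0.127 and 0.189, with a median of 0.0176. Of 16 libraries, 6 correlated best with their own number. In each group the mitochondrial share was higher in libraries 1 and 2 than in libraries 3 and 4. Whether the number stands for an order or a batch was not tested.

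Signs turned for values near 0. Klf10 had 0.00545 with the TPM filter, 0.0104 after quantile normalization, 1.23 CPM on the linear scale, 0.00363 without controls 1 and 2, and -0.05 to 0.0245 with 1 library left out, above 0 in 7 of those, 0.00279 without tirzepatide 1 being the smallest of them. Il1b had 0.21 CPM on the linear scale. With 1 library left out, Txnip ran from -0.0257 to 0.0814 and Abcg1 from -0.0701 to 0.149, both below 0 without combination 2. The causes of these shifts were not tested. The median SE of the interaction was 0.108.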
